A study of Ovis aries with 2 samples.

Results

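The KRT6A-rich companion layer-like cells of lamb skin were 629 of 14037 cells, 200 of 6452 in a library from straight wool lambs and 429 of 7585 in a library from curly (waved) wool lambs. A cell was a member where KRT6A reached 20 UMIs per 10000 of its UMIs (CP10K) and the summed CP10K of KRT71, KRT25, KRT27 and KRT28 stayed below 20. KRT6A is a type II keratin, and the other 4 are keratins of the inner root sheath. The rule was therefore set on measured values, and the levels of these 5 genes describe the choice and are no finding. The name rests on 5 markers, KRT6A, SHISA2, GPX2, FABP4 and CRABP2, since the companion layer keratin KRT75, like KRT16, KRT6B and KRT6C, was not analysed here.

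The study asked how the skin of Hu sheep lambs with straight and with curly wool differs in its cells. Skin of 3-day-old lambs was taken from the body side, and suspensions of follicles and of whole skin were mixed. Skins of 3 lambs per wool type were pooled into 1 droplet library each, so a group is 1 sample and cannot be split by lamb. The labels name no treatment or engineered allele in either group. No test between wool types was possible, and both libraries' values are set side by side with 95% intervals that cover counting error only (exact Poisson for counts, exact Clopper-Pearson for shares). Levels are UMIs of a gene summed over cells, per 1000000 summed UMIs of those cells (CPM), and a gene is called past the fold where log2 of a ratio was at least 1 or at most -1.

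The companion layer is a single sheet of flat keratinocytes between the inner and the outer root sheath of the hair follicle. It is attached to the inner root sheath by desmosomes and moves up with it, along the outer root sheath. KRT6 and KRT75 keratins mark it in several mammals, and KRT6A is also made by outer root sheath cells and by keratinocytes under stress. SHISA2 retains FGF and Frizzled receptors in the endoplasmic reticulum, GPX2 is a glutathione peroxidase, FABP4 binds fatty acids and CRABP2 carries retinoic acid to its receptors.

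The libraries held 57956122 UMIs (straight) and 77634565 UMIs (curly), and 500 to 71653 per cell, with 70 cell barcodes present in both, 6 members among them. Members held a median of 8746.5 UMIs in the straight and 18183 in the curly library, against 7371 and 7226.5 in all other cells. Shallow members, with 1733 detected genes at most, were 41% of straight and 23.1% of curly members, and the others are called deep members here. In shallow cells very few UMIs were enough to pass the rule, and 19 members in each library passed on fewer than 5 KRT6A UMIs.

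Members made up 3.10% of straight cells (2.69% to 3.55%) and 5.66% of curly cells (5.15% to 6.20%). The share was higher in the curly library under each alternative tried, with 2.68% and 6.36% where each cell was thinned to 2000 UMIs. Wool type, the lambs of a pool and the library cannot be told apart. KRT6A ranged from 20.03 to 270.5 CP10K in straight members, with a median of 67.9, and from 20.24 to 289.5 in curly members, with a median of 80.4. Just under the minimum lay 105 straight and 106 curly cells at 10 to 20 CP10K, and just above it 27 and 36 members at 20 to 30. The highest KRT6A just outside was 19.80 CP10K in straight and 19.96 in curly cells. A further 15 straight and 149 curly cells passed the KRT6A minimum with keratins of the inner root sheath at or above the limit, and were not members.

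**Figure D1:**
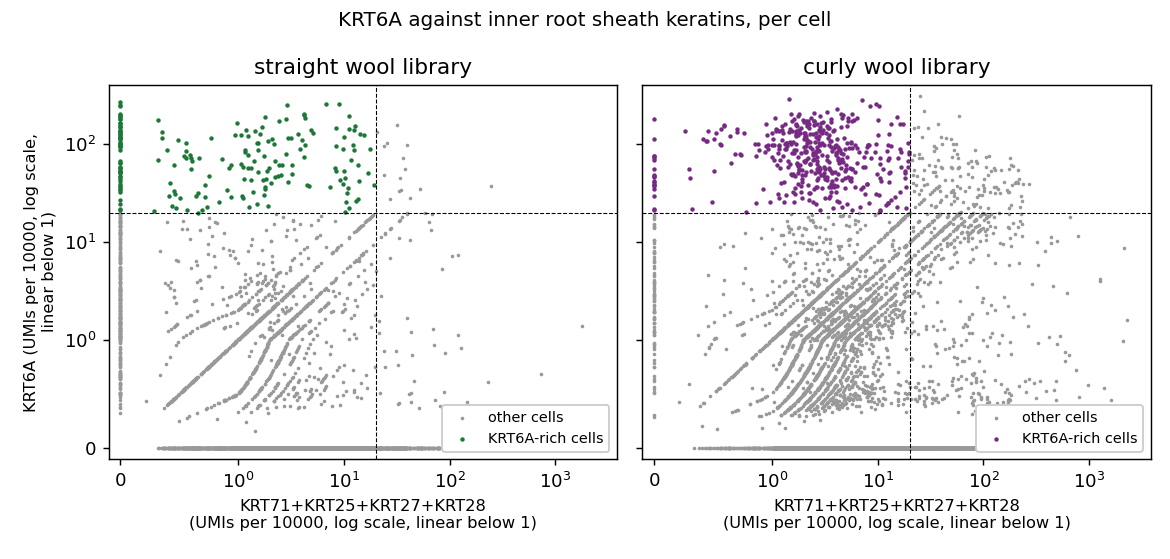
KRT6A (vertical axis) against the sum of KRT71, KRT25, KRT27 and KRT28 (horizontal axis) in single cells, both in UMIs per 10000 on log axes that are linear below 1, 1 panel per library. Dashed lines mark the rule at 20, and coloured points are the 200 straight and 429 curly members. Cells with both KRT6A and the keratin sum at 20 or more, which are not members, number 15 in the straight and 149 in the curly panel.

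The markers SHISA2, GPX2, FABP4 and CRABP2, which the rule did not read but which gave the cells their name, were higher in members than in each comparison group of both libraries. SHISA2 was at 117 CPM (103 to 132) in straight and 132 CPM (124 to 141) in curly members, against 7.25 and 13.8 CPM in all other cells. GPX2 was at 1136 CPM (1092 to 1181) and 1738 CPM (1707 to 1768), against 107 and 106 CPM. FABP4 was at 476 CPM (448 to 505) and 954 CPM (932 to 977), against 48.8 and 54.5 CPM. CRABP2 was at 639 CPM (606 to 672) and 1660.4 CPM (1631 to 1690.4), against 119.9 and 131 CPM. Members and other cells had intervals that did not overlap for any of the 4, but these cover counting error only. The share of all genes with such a gap was not counted, and the 4 had given the cells their name, so the gap is no support. KRT6A itself, the gene of the rule, was at 7443 and 9509.8 CPM.

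Other cells did not all lack the markers, and the next highest group differed by gene. GPX2 in KRT1-rich cells, those with KRT1 at 20 CP10K or more, reached 534 CPM in the straight and 477 CPM in the curly library. SHISA2 came next in KRT15-rich cells, those with KRT15 but not KRT1 at 20 CP10K or more, with 17.1 and 40.2 CPM. FABP4 in KRT15-rich cells was 22.5 CPM in the straight and 140.4 CPM in the curly library, and in KRT1-rich cells 68.9 and 7.62 CPM, so its order turned between the libraries. CRABP2 came next in VIM-rich cells without keratinocyte keratins, with 301 and 435 CPM. Cells rich in inner root sheath keratins held little SHISA2 (1.62 and 8.90 CPM) and GPX2 (23.4 and 28.8 CPM), at a median depth of only 1024 and 1201.5 UMIs per cell. KRT6A in the VIM-rich cells, which should not make it, was at 19.4 and 61.0 CPM, and a KRT6A UMI was found in 10.5% and 25.6% of them at median depths of 5655.5 and 4682.5 UMIs.

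**Figure D2:**
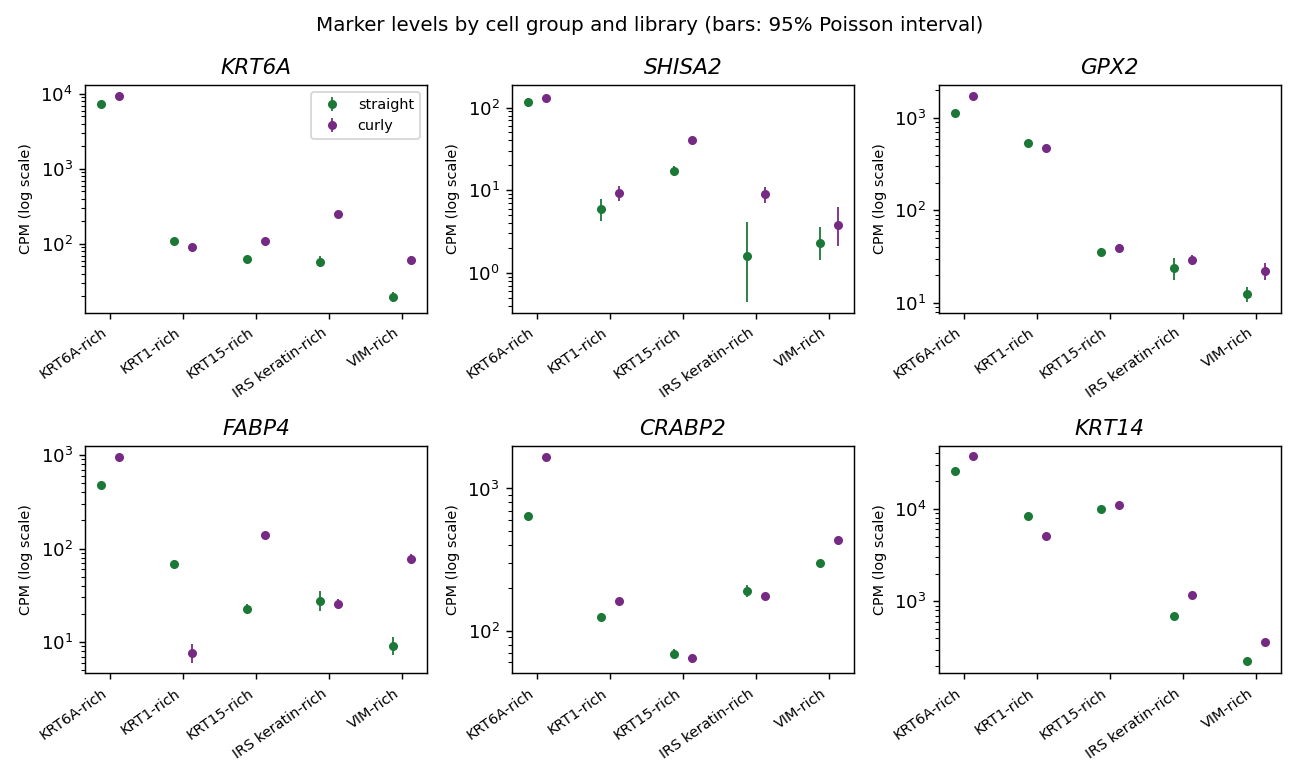
CPM on log axes of the 5 markers and of KRT14 in KRT6A-rich cells and in 4 comparison groups, straight in green and curly in purple, 1 point per library with its 95% Poisson interval. Each marker and KRT14 is highest in the KRT6A-rich cells of both libraries. KRT6A is included although the rule used it.

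Markers were not spread evenly over the members. A UMI of SHISA2 was found in 44.5% of straight and 66.7% of curly members, and of FABP4 in 38.5% and 59.0%. GPX2 was found in 81.5% and 86.5%, and CRABP2 in 73.5% and 92.3%. In VIM-rich cells these shares were at most 9.07% for SHISA2, GPX2 and FABP4, but 56.6% and 56.7% for CRABP2, so that a CRABP2 UMI alone did not set members apart. At least 3 of the 4 markers beside KRT6A were found in 46.5% of straight and 71.6% of curly members. After thinning to 2000 UMIs these shares were 33.8% of 142 and 48.8% of 377 members, against at most 1.45% in any comparison group. Thinning left out 58 straight and 52 curly members as too shallow. Per cell, FABP4 had a lowest, median and highest value of 0, 0 and 37.3 CP10K in straight and 0, 1.27 and 73.0 in curly members. For CRABP2 these were 0, 5.38 and 37.7 in straight and 0, 14.3 and 54.1 in curly members.

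The members lay together also by genes that the rule did not use. Each library was ordered on its own by 30 principal components of 2000 variable genes without the 5 rule genes, and the 20 nearest neighbours of each cell were read. On average 64.7% of the neighbours of a straight member and 78.1% of those of a curly member were members, whereas members were 3.10% and 5.66% of all cells. For a cell that was no member this share was 1.08% and 1.20%. Of curly members, the deep ones had 88.0% member neighbours and the shallow ones 45.1%, and of straight members 68.6% and 59.1%. Cells with KRT6A at 10 to 20 CP10K, just under the minimum, had 10.7% and 14.5%, with median depths of 835 and 1745.5 UMIs. The 149 curly cells outside the members with KRT6A and inner root sheath keratins both at 20 CP10K or more had 13.1% member neighbours. Of their neighbours 34.97% were rich in inner root sheath keratins with KRT6A under 20 CP10K.

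Across all genes with at least 500 UMIs, 298 of 9888 were past the fold upward against all other cells in both libraries (3.01%) and 1616 downward (16.3%). The median log2 ratio over these genes was -0.31 in the straight and -0.50 in the curly library, and list values below are read beside it. By the lower of the libraries, KRT6A led the ranking, followed by MAL (73.4 and 128 CPM against 2.32 and 3.32 in other cells), a proteolipid of membrane sorting. MAT1A, a methionine adenosyltransferase, was at 39.8 and 61.2 CPM against 0.593 and 1.97 CPM. GABRP, the pi subunit of the GABA-A receptor, was at 51.3 and 54.4 CPM against 1.80 and 2.78 CPM. It was found in few cells, with UMIs in 14 of 200 straight and 67 of 429 curly members and 61.2% of the 116 straight UMIs in 3 cells. Without the 3 highest cells of each library it was at 20.6 and 43.5 CPM.

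The rest of the 20 highest were of varied known function. CDHR2, a protocadherin of the brush border, was at 27.4 and 27.0 CPM against 1.02 and 1.41 CPM. PDZRN3, a ubiquitin ligase with PDZ domains, was at 188 and 218 CPM against 14.5 and 16.7 CPM, the same log2 ratio of 3.70 in each library. The immune checkpoint ligand VTCN1 had log2 ratios of 3.22 and 3.28, and the homeobox gene VAX2 of 3.20 and 4.20. ATP6V0A4 (a subunit of the vacuolar proton pump), SLC36A2 (an amino acid transporter), LGALS15 (a galectin) and the unnamed LOC114117813 were at 0.884 to 2.21 CPM in straight but 18.6 to 29.2 CPM in curly members. Their place in the ranking rests on 2 to 5 straight UMIs each. The carboxypeptidase-like CPVL, and the unnamed LOC101108147, LOC114111062, LOC101112509 and LOC101105214 complete the 20 with the 3 markers GPX2, FABP4 and SHISA2. LOC101105214 had 171 CPM in straight but 2579 CPM in curly members.

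Over 10 points, the 5 comparison groups other than all other cells (members included) in each library, the genes most like KRT6A by Pearson's r of log2(CPM + 1) were CDHR2 (r = 0.98), MAT1A (0.97), PDZRN3 (0.97), GABRP (0.96) and TMEM164 (0.95). For SHISA2 they were SHF, PHYHIP, OCIAD2, RIIAD1 and LOC101108705, with r from 0.95 to 0.97. For GPX2 they were SCGB1C1 (0.99), ATP6V1B1 (0.98), TRAPPC1, KIF1C and HEBP2. For FABP4 the likeness was lower, with GYG1 at 0.91 and MPST, TST, CES2 and RAB7B at 0.86, and for CRABP2 PHACTR1 stood at 0.95 and MAP4, DYNLRB1, MAL and LOC101107153 at 0.91. Points share a library in groups of 5, so these are descriptions. The rule fixed KRT6A high in the member points and low in the KRT1-rich, KRT15-rich and VIM-rich points, so its likeness mainly repeats which genes were high in members.

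Members carried the keratin pair of basal and outer root sheath cells at a high level. KRT14, the type I keratin of basal keratinocytes, was at 25469 and 37285 CPM, against 9929.6 and 11099 CPM in KRT15-rich and 8429 and 5118 CPM in KRT1-rich cells. Its partner KRT5 was at 23497 and 19690.3 CPM, against 9793 and 10294 CPM in KRT15-rich cells. KRT17, a keratin of follicle sheaths, was at 31347 and 13681 CPM, against 10837 and 8681 CPM in KRT1-rich cells. KRT15 was low, at 129 and 139 CPM. Of the 11 genes of the companion layer and outer root sheath keratin list, KRT6A included, 4 were past the fold upward against all other cells (KRT6A, KRT17, KRT5 and KRT14) and 4 downward (KRT15, KRT8, KRT18 and KRT19), with medians of 0.40 and -0.54. Over all genes the shares were 3.01% and 16.3%, and the rule itself set KRT6A high. KRT14 and KRT17 are close in sequence, as are the KRT6 genes, and the counting may have split reads between such copies.

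KRT10, a keratin of suprabasal epidermis, was at 751 and 808 CPM, against 25251 and 27802 CPM in KRT1-rich cells. Of 9 suprabasal genes compared with KRT1-rich cells, whose choice used KRT1, 7 were past the fold downward and 0 upward, beside 4.69% and 4.22% of all 4074 genes. Against all other cells, 2 of 9 were past the fold downward, KRT10 and KRT77, and 1 upward, beside 16.3% and 3.01% of all genes. The 1 upward was SBSN, a secreted protein of suprabasal cells, with 3697 and 4316 CPM against 916 and 1637 CPM. CST6, a cysteine protease inhibitor of upper follicle and duct, was at 16594 and 17398 CPM, against 3961 and 13206 CPM in all other cells. KRT79, a keratin of the infundibulum, was at 190.5 and 257 CPM, against 692 and 1001 CPM in KRT1-rich cells. Of the 7 infundibulum and sebaceous duct genes, 5 had a row, and 1 (KLK6) was past the fold upward and 1 (ALDH3A1) downward, too few to read against all genes.

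Junction genes were the list with the most genes past the fold upward. Of 23 genes for desmosomes and other junctions, 13 were past the fold upward against all other cells and 1 downward, CDH3, beside 3.01% and 16.3% of all genes, with medians of 1.63 and 1.07. DSC2, a desmosomal cadherin, was at 86.6 and 59.0 CPM, against 9.89 and 8.39 CPM. In KRT1-rich cells it reached 2.82 and 2.43 CPM. DSP, the plaque protein that ties desmosomes to keratin, was at 1408 and 1093 CPM, against 351 and 377 CPM. GJB6, a gap junction connexin, was at 389 and 559 CPM, and in KRT1-rich cells at 30.2 and 22.4 CPM. The other cells hold many cells that are no keratinocytes, and against KRT1-rich cells 6 of 20 junction genes were past the fold upward and 1 downward, beside 4.22% and 4.69% of 4074 genes. Against KRT15-rich cells 10 of 19 were upward and 1 downward, beside 4.77% and 10.8% of all 4947 genes. Against cells rich in inner root sheath keratins 9 of 17 were upward and 0 downward, beside 8.73% and 8.73% of 3390 genes. Against VIM-rich cells, which should hold few desmosomes, 16 of 16 were upward, beside 9.67% upward and 19.8% downward of 4052 genes. The whole junction list had only 4134 and 2893 UMIs in VIM-rich cells, against 25163 and 92802 in members. Its genes reached the minimum of 500 UMIs mainly through members, so this count was largely set in advance and is no support.

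Receptors and signalling genes gave a mixed picture. In the list of SHISA, WNT and FGF receptor genes 4 of 14 were past the fold upward, SHISA2, SHISA4, FZD6 and FZD3, and 4 downward, FGFR1, FGFR2, LRP5 and FZD10, beside 3.01% and 16.3% of all genes. SHISA2 had given the cells their name and is no support in this count. SHISA4, a relative of SHISA2, was at 59.7 and 63.0 CPM against 19.2 and 22.1 CPM. FZD6, a Frizzled receptor, reached 72.9 and 74.1 CPM against 23.7 and 24.1 CPM. FGFR2 was at 6.19 and 6.92 CPM against 41.7 and 40.4 CPM. Of 20 genes for WNT ligands, modulators and effectors, 0 were past the fold upward and 12 downward, beside 16.3% of all genes, with medians of -2.04 and -2.72. Against KRT15-rich cells 0 of 8 were upward and 5 downward, beside 4.77% and 10.8% of all genes. Against KRT1-rich cells 1 of 4 was upward and 0 downward, beside 4.22% and 4.69% of all genes. Against cells rich in inner root sheath keratins it was 0 of 3 in either direction, beside 8.73% each way. The latter 2 counts hold too few genes to read. LEF1, an effector of WNT signalling, was at 4.42 and 5.26 CPM against 27.8 and 33.8 CPM. Of 16 EGFR and NOTCH genes 1 was upward, the ligand TGFA (13.3 and 10.2 CPM), and 3 downward, which is near the shares over all genes.

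The fatty acid and retinoid list held 3 of 19 genes upward and 6 downward, beside 3.01% and 16.3% of all genes. FABP4 and CRABP2 had given the cells their name, so the upward count is no support. Upward were FABP4, CRABP2 and FABP5, another fatty acid binding protein, at 3574 and 2591 CPM, beside cells rich in inner root sheath keratins with 3342 and 2563 CPM. CRABP1, the relative of CRABP2, went the other way, with 17.2 and 10.8 CPM in members and 2016 and 3326 CPM in VIM-rich cells. PPARG, the nuclear receptor that drives FABP4 in fat cells, was at 0.442 and 0.138 CPM, both under the level of 3 UMIs (1.33 and 0.415 CPM). In the antioxidant list 4 of 34 were upward, GPX2, GSTA1, MGST1 and TXN, and 7 downward, the latter near the 16.3% of all genes. GPX2 too had given the cells their name and is no support in this count. GSTA1, a glutathione transferase, was at 335 and 438 CPM, but KRT1-rich cells held more, 587 and 622 CPM.

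SOX9, a transcription factor of the outer root sheath and its stem cells, was at 503 and 448 CPM, against 238 and 229 CPM in KRT15-rich cells. It was 1 of 2 upward among 37 keratinocyte transcription factors, with BARX2 (174 and 257 CPM), and 8 were downward, among them MSX1 and ID2, shares near the 3.01% and 16.3% of all genes. Of 12 follicle stem cell genes, SOX9 was the 1 upward and 4 were downward, among them CXCL14 and POSTN, and against KRT15-rich cells 0 of 10 were upward and 9 downward, beside 4.77% and 10.8% of all genes. Of 20 cell cycle genes 0 were upward and 17 downward, beside 3.01% and 16.3% of all genes, with TOP2A at 3.09 and 3.05 CPM against 46.6 and 41.0 CPM. Against KRT15-rich cells 0 of 12 were upward and 9 downward, beside 4.77% and 10.8% of all genes. Against cells rich in inner root sheath keratins 0 of 8 were upward and 5 downward, beside 8.73% each way. Against VIM-rich cells it was 0 of 6 and 3, beside 9.67% and 19.8%. Against KRT1-rich cells 1 of 5 was upward and 1 downward, beside 4.22% and 4.69%. A level lower than in KRT1-rich cells was thus not shown, with few genes to read. Of 11 S100A genes 3 were upward (S100A2, S100A1 and S100A16) and 3 downward, beside 3.01% and 16.3%. S100A2, a calcium binding protein of basal keratinocytes, was at 18163 and 13999 CPM against 4405 and 2716 CPM. Of 16 immediate early genes, which rise during dissociation, 0 were upward and 1 downward, a count too small to read against 3.01% and 16.3%.

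Markers of other tissues were low in members. All 8 dermal genes were downward, beside 16.3% of all genes, with a summed level of 313 and 136 CPM against 2635 and 2181 CPM. VIM was at 57.5 and 42.7 CPM. Endothelial and leukocyte genes summed to at most 19.0 CPM. The hair shaft keratins summed to 77.8 and 89.9 CPM against 963 and 1501 CPM. Of the 26 lists, the 1 for melanocytes had 1 gene with enough UMIs, past the fold in neither direction. The sweat gland list had 3 of 4 downward and the smooth muscle list 5 of 7, beside the same 16.3% of all genes.

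Within the members, gene levels moved with KRT6A. From the lowest KRT6A band (20 to 40 CP10K) through 40 to 80 and 80 to 160 to the highest (160 and more), KRT14 was at 13728, 20316, 37438 and 53904 CPM in the straight and at 18215, 29546, 42098 and 59891 CPM in the curly library. GPX2 was at 735, 1051, 1491 and 1882 CPM in the straight and 878, 1399, 1999.7 and 2547 CPM in the curly library. Both rose from band to band in each library. FABP4 was at 114, 249.9, 919.9 and 1383 CPM in the straight library, where it rose more steeply, and at 520.5, 927, 997 and 1369 CPM in the curly library. KRT1 fell from band to band, at 3269.6, 1402, 317 and 186 CPM in the straight and 1339, 393, 61.6 and 39.1 CPM in the curly library. Few cells weighed heavily in this, with 30.1% of the straight and 54.9% of the curly members' KRT1 UMIs in 3 cells of each library. The bands held 49, 64, 64 and 23 straight cells and 75, 138, 169 and 47 curly cells. Median depth differed between them, with 15581 UMIs in the lowest and 3582 in the highest straight band, and 13234 and 17686 in the curly ones, and its part in these levels was not tested. Over the 118 straight and 330 curly deep members, Spearman's rho of KRT14 with KRT6A was 0.59 and 0.60, and of GPX2 0.35 and 0.42. For SHISA2 it was 0.45 in the straight and 0.03 in the curly library. For KRT1 it was -0.28 and -0.11. Cells of a library share its pool and these are descriptions.

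**Figure D3:**
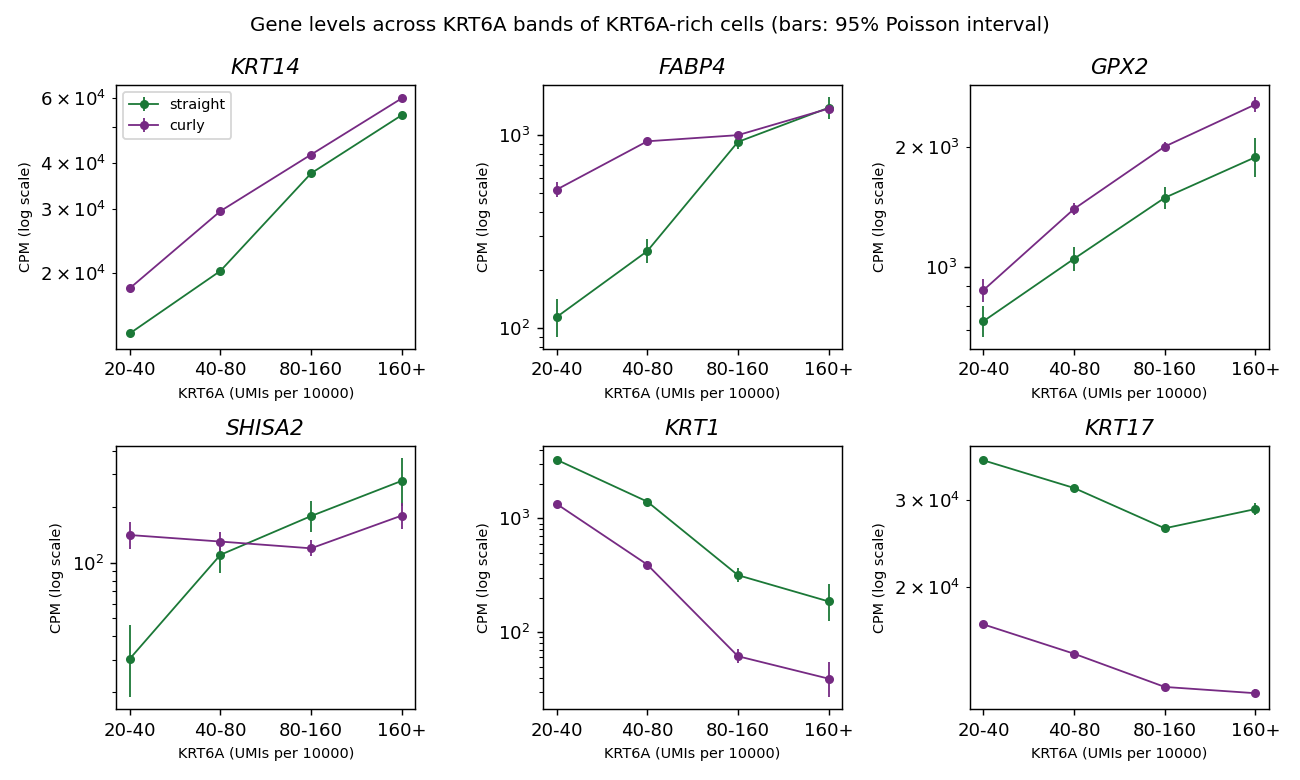
CPM on log axes of KRT14, FABP4, GPX2, SHISA2, KRT1 and KRT17 in 4 bands of KRT6A (UMIs per 10000) within KRT6A-rich cells, straight in green and curly in purple with 95% Poisson intervals. KRT14 and GPX2 rise and KRT1 falls over the bands of both libraries, while KRT17 is lower in the curly library in each band.

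The members were not of one kind. Splits of them were made after their values had been seen, with CDSN at 20 CP10K or more (CDSN-rich), FABP4 at 5 CP10K or more without that (FABP4-rich), and KRT1 at 20 CP10K or more with neither (KRT1-rich members). They are ranges of values and not types. FABP4-rich were 49 of 200 straight members (24.5%, 18.7% to 31.1%) and 175 of 429 curly members (40.8%, 36.1% to 45.6%). CDSN-rich were 7 straight (3.5%, 1.42% to 7.08%) and 57 curly members (13.3%, 10.2% to 16.9%). KRT1-rich members were 24 straight (12%, 7.84% to 17.3%) and 6 curly (1.40%, 0.515% to 3.02%). Of the deep members, FABP4-rich made up 26.3% of 118 and 47.0% of 330, CDSN-rich 1.69% and 12.7%, and KRT1-rich members 13.6% and 1.21%. The remaining 120 straight and 191 curly members met none of these. A single FABP4 UMI is enough in cells of 2000 UMIs or fewer.

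In the curly library CDSN and FABP4 were almost never high in the same cell. CDSN encodes corneodesmosin, a protein of the desmosomes of cornifying cells. Both limits were met by 1 of the 57 CDSN-rich curly members. In the straight library they were met by 1 of 7, too few to read. Near the limits lay few cells, with CDSN at 10 to 20 CP10K in 3 straight and 17 curly members and at 20 to 40 in 3 and 4. FABP4 was at 2.5 to 5 CP10K in 8 and 19 members and at 5 to 10 in 17 and 39. In the curly library 75.7% of the nearest neighbours of a CDSN-rich member were CDSN-rich members and 0.702% had FABP4 at 5 CP10K or more. Members with that much FABP4 had 65.9% and 0.227%. Genes such as CDSN and FABP4 themselves entered the components.

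**Figure D4:**
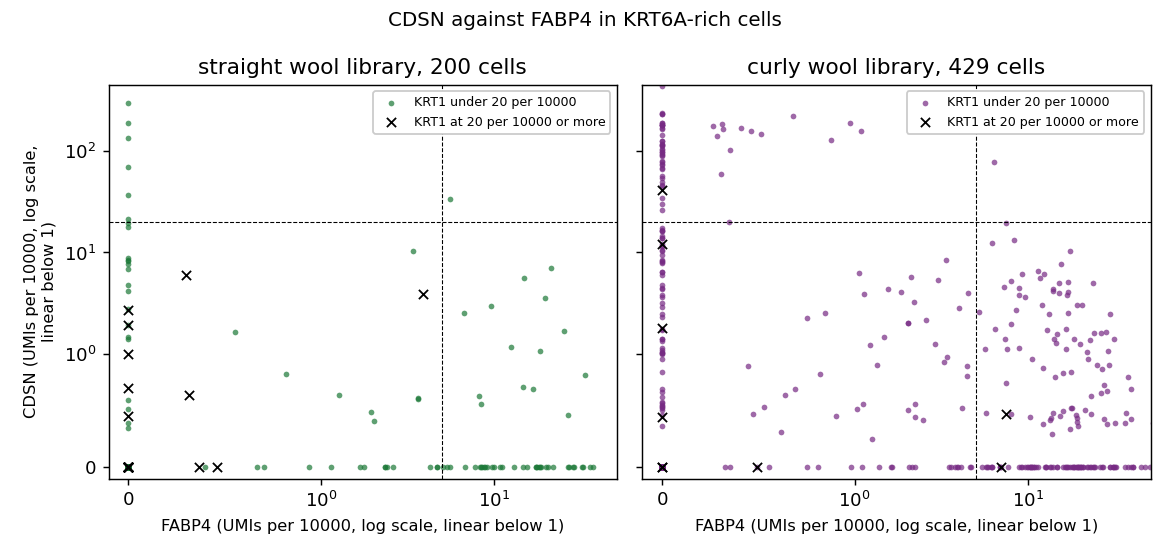
CDSN against FABP4 in single KRT6A-rich cells, in UMIs per 10000 on log axes that are linear below 1, with the 200 straight cells on the left and the 429 curly cells on the right. Dashed lines mark 20 for CDSN and 5 for FABP4, crosses are cells with KRT1 at 20 or more, and the upper right field holds 1 cell in each panel.

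CDSN-rich and FABP4-rich members differed in several genes beside the pair that split them. The genes given here were also chosen after their values were seen, so they describe these cells and stand for no gene group. KLK7, the kallikrein that cuts corneodesmosin, was at 12182 CPM (11982 to 12385) in curly CDSN-rich and 34.3 CPM (28.4 to 41.0) in curly FABP4-rich members, and at 4152 and 9.55 CPM in the straight library. SPINK5, an inhibitor of these kallikreins, was at 2960.3 and 32.0 CPM in the curly and 6597 and 32.5 CPM in the straight library. KLK10 was at 10022 and 65.7 CPM in the curly, and at 7791 and 43.9 CPM in the straight library. CDSN-rich members were the higher in both libraries for all 3 genes. The straight CDSN-rich values rest on 7 cells with 52751 UMIs in all, only 2 of them deep. CTSV, a cathepsin of cornifying cells, was at 10186 and 446 CPM in the curly library. HOPX, a homeodomain protein, was at 2484 and 97.1 CPM, and the unnamed LOC101105214 at 15524 and 68.3 CPM. GABRP, which stood among the 20 highest, was at 238 CPM in CDSN-rich and 3.17 CPM in FABP4-rich curly members, and ATP6V0A4, SLC36A2, LGALS15 and LOC114117813 likewise at 105 to 176 CPM and at most 1.15 CPM.

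FABP4-rich members held in turn SHISA2 at 244 and 164 CPM (straight and curly), against 75.8 and 20.7 CPM in CDSN-rich members. GSTA1 was at 601 and 572 CPM against 37.9 and 29.4 CPM. GSTM3, also a glutathione transferase, reached 250.1 and 369.8 CPM against 0 CPM (0 to 69.9) and 15.6 CPM (9.22 to 24.6). The chemokine CXCL12 was at 277 and 228 CPM against 0 CPM (0 to 69.9) and 3.46 CPM (0.942 to 8.85). MGP, the matrix Gla protein, was at 1205 and 2245 CPM against 94.8 and 171 CPM. KRT14 was close in both, at 43701 CPM in FABP4-rich and 45024 CPM in CDSN-rich curly members. CRABP2 and GPX2 were present in both, at 1656 and 2314 CPM in FABP4-rich and 2728 and 1662 CPM in CDSN-rich curly members. SHISA2 in CDSN-rich curly members lay below its level in curly KRT15-rich cells, and FABP4 was rarely high in them. By these markers the CDSN-rich curly members went against the companion layer name. Of 856 genes with at least 500 UMIs in these curly cells 132 were past the fold upward in CDSN-rich members (15.4%) and 98 downward (11.4%). The genes LOR and FLG of the cornified epidermis were at 19.0 and 20.7 CPM in CDSN-rich curly members. Doublet calls fell on 12.3% of CDSN-rich and 4% of FABP4-rich curly members, at median depths of 24274 and 21560 UMIs, and their part in the split was not tested.

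The KRT1-rich members also went against the companion layer name. CST6 was at 54463 and 78744 CPM, KRT79 at 863 and 3466 CPM and KRT14 at only 3547 and 5759.9 CPM. Their KRT17 was at 45234 and 21809 CPM. FABP4 was at 12.2 and 9.76 CPM, SHISA2 at 24.5 and 19.5 CPM, and MAL had 0 UMIs, which allows up to 9.02 and 36.0 CPM. Of the nearest neighbours of members with KRT1 at 20 CP10K or more, 57.1% in the straight and 48.3% in the curly library were KRT1-rich cells outside the members. GPX2 remained at 1074 and 1318 CPM. Of these cells, 4.17% of the straight and 33.3% of the 6 curly cells were called doublets.

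Between the wool types, 145 of 5399 genes with at least 100 UMIs in members were past the fold toward curly (2.69%) and 297 toward straight (5.5%). In all other cells these 5399 genes gave 123 (2.28%) and 69 (1.28%). The mix of other cells differed between the libraries. VIM-rich cells were 22.9% of straight and 10.2% of curly cells, and cells rich in inner root sheath keratins 5.42% and 19.5%. The part of this mix in the ratios of other cells was not tested. The median over these genes was -0.23 (log2, curly over straight) in members and -0.10 in other cells, and with members scaled by that median 208 genes were past the fold toward curly and 139 toward straight, so the excess toward straight turned. Ratios below are unscaled and are read beside -0.23.

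The markers differed between the libraries to unequal degrees. CRABP2 had a log2 ratio of curly over straight of 1.38 (1.30 to 1.46), and in other cells of 0.13. FABP4 had 1.005 (0.91 to 1.10) and 0.16 in other cells. GPX2 had 0.61 (0.55 to 0.68) and SHISA2 0.18 (-0.02 to 0.38). Within FABP4-rich members alone the ratio of FABP4 was 0.00, with 1905 CPM in the straight and 1909 CPM in the curly library, though these cells were chosen on FABP4. Of 2815 genes with at least 100 UMIs in FABP4-rich members, 79 were past the fold toward curly (2.81%) and 173 toward straight (6.15%). In them CRABP2 had 0.80 and GPX2 0.28, both smaller than over all members, and SHISA2 had -0.58, with the sign turned. Among deep members CRABP2 had 1.37 and among shallow ones 1.30.

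KRT17 was lower in curly members, with a log2 ratio of -1.20 (-1.21 to -1.18), against -0.46 in other cells. Within FABP4-rich members it was 0.12 and within the remaining members -0.77. In KRT1-rich members KRT17 was also lower in the curly library, by the levels given above. The mix of splits differed between the libraries. FABP4-rich members, with KRT17 at 9863 and 10744 CPM, held 23.1% of the straight and 48.0% of the curly members' UMIs. KRT1-rich members held 18.1% and 1.42% of them. The remaining members held KRT17 at 36656 and 21484 CPM. The part of this mix in the ratio was not tested. KRT14 had 0.55 (0.54 to 0.56) in members and -0.38 in other cells. KRT1 had -2.28 (-2.35 to -2.20) in members and 0.10 in other cells, beside the 24 straight and 6 curly KRT1-rich members.

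CDSN and its kallikreins were higher in curly members. CDSN was at 355 CPM (331 to 381) in straight and 2272 CPM (2238 to 2308) in curly members, a log2 ratio of 2.68, and KLK7 was at 294 and 2014 CPM, a log2 ratio of 2.78. In the straight library 3 cells held 80.1% of the 804 CDSN UMIs. Without the 3 highest cells of each library CDSN was at 73.3 CPM in straight and at 1976 CPM in curly members, a log2 ratio of 4.75, and KLK7 was at 144 and 1678 CPM, a log2 ratio of 3.55. KLK5 was at 21.2 and 278 CPM. Without the CDSN-rich members the log2 ratio of KLK7 was -1.47 and that of KLK5 -0.71, toward straight but for KLK5 not past the fold. The number of genes past the fold toward curly was then 84, against 145. That split was made on CDSN after values were seen, and KLK7 was far higher in those cells. A fall of KLK7 was therefore set in advance, and the part of the CDSN-rich members in the ratios was not tested. In all other cells KLK7 had 1.41 and CDSN 2.28.

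The 10 genes furthest toward curly were IFI6, MX1 and 8 unnamed loci. IFI6, induced by interferon, had 9 UMIs in straight and 15045 in curly members, or 3.98 CPM (1.82 to 7.55) and 2084 CPM (2051 to 2117), and in all other cells 76.3 and 4323 CPM. A UMI was found in 400 of 429 curly members, and only 5.03% of the UMIs lay in 3 cells. Curly members held less of it than curly KRT15-rich cells, with 10706 CPM. Within the members it was at 2171 CPM in FABP4-rich, 205 CPM in CDSN-rich and 2699.8 CPM in the remaining curly cells. MX1, an interferon-induced antiviral GTPase, had 0 UMIs in straight and 216 in curly members, at least 22.6-fold higher against a floor of 3 UMIs over the straight members. LOC114117888, LOC114117975, LOC105607568, LOC101110777 and LOC114117974 also had 0 straight UMIs, and were at least 30.6 to 42.5-fold higher by that floor. For LOC101110777, 91.8% of the 317 UMIs lay in 3 curly cells. LOC101117112, LOC101113168 and LOC105602911 had 2, 3 and 1 straight UMIs, with log2 ratios of 7.89 (6.04 to 10.94), 7.50 (5.95 to 9.78) and 7.09 (4.61 to 12.40). All 10 were also past the fold toward curly in other cells, with LOC114117975 and LOC105607568 at 0 UMIs there in the straight library.

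Of the 10 genes furthest toward straight, several rested on few cells. LOC114115666 was at 87.1 and 0.831 CPM and went the same way in other cells (-6.53). The chemokine CXCL8 was at 108 and 2.77 CPM, but 3 straight cells held 95.9% of its 244 UMIs, and without the 3 highest cells of each library it was at 4.58 CPM (2.198 to 8.43) and 1.67 CPM (0.863 to 2.92). CCL20, also a chemokine, had 92.2% of its straight UMIs in 3 cells, and without the 3 highest cells of each library was at 7.36 and 1.95 CPM. The neuropeptide GAL had 98.7% of 78 straight UMIs in 3 cells. Without the 3 highest cells of each library, 1 straight and 10 curly UMIs of GAL were left. Its levels were then 0.453 CPM (0.0115 to 2.52) and 1.40 CPM (0.672 to 2.58), too few UMIs to read a direction. CASP14, a caspase of cornification, was spread more widely, over 51 of 200 straight and 53 of 429 curly members. It was at 189 CPM (171 to 207) and 20.5 CPM (17.3 to 24.1), and its log2 ratio was -3.20 in members and 0.36 in other cells. By split it was at 263 and 30.9 CPM in the remaining, 213 and 244 CPM in KRT1-rich and 7.64 and 10.7 CPM in FABP4-rich members. FGFBP1, TFPI2, THBS2, TMEM88B and CCN3 had log2 ratios of -4.10 to -3.38, each from 86 to 260 straight UMIs, and without the 3 highest cells of each library they were still at 21.5 to 58.2 CPM in straight and 1.68 to 4.19 CPM in curly members.

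**Figure D5:**
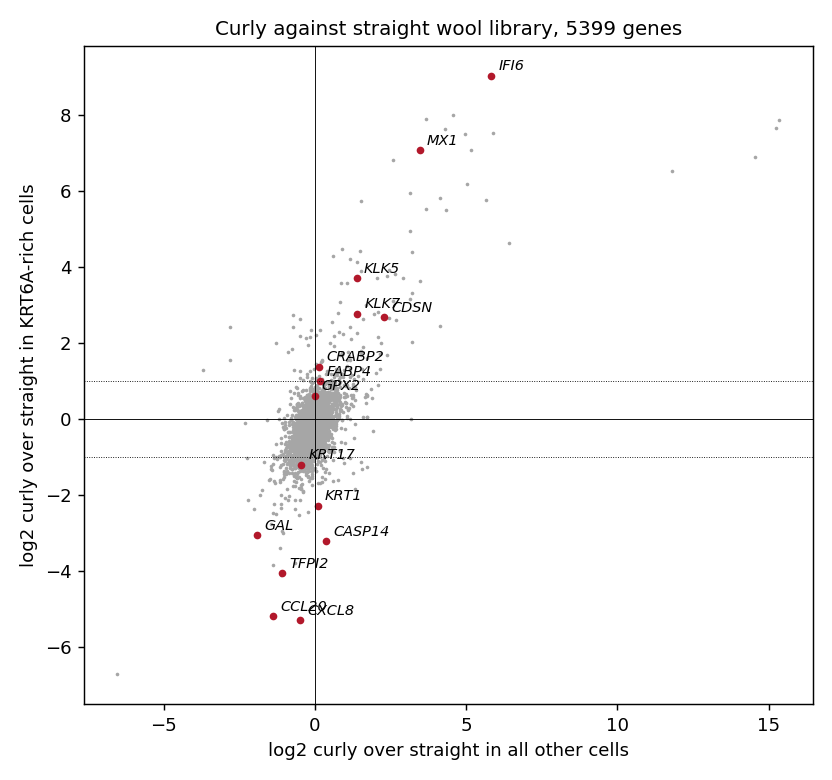
log2 of curly over straight in KRT6A-rich cells (vertical axis) against the same in all other cells (horizontal axis), 1 point per gene for 5399 genes, with 15 genes named and dotted lines at a log2 of 1 and -1. IFI6 and MX1 lie high on both axes, whereas CASP14 and KRT1 are low in KRT6A-rich cells and near 0 in the others.

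Beside 2.69% of all genes toward curly and 5.5% toward straight, of 13 cornified envelope genes 5 were past the fold toward curly and 1, CASP14, toward straight, and those toward curly were LOR, CSTA, TGM3, KLK5 and KLK7. Without CDSN-rich members KLK5 and KLK7 lay toward straight. The whole list summed to 1443 and 3821 CPM in straight and curly members, but also to 632 and 1918 CPM in all other cells. In KRT1-rich cells it summed to 2016 and 4522 CPM, so a higher curly level was not particular to the members. Of 27 antioxidant genes 0 were toward curly and 7 toward straight, with a list median of -0.20 near the -0.23 of all genes, and the excess toward straight over all genes turned under median scaling. Among the 7 were SOD2 (133 and 19.7 CPM), which was also lower in curly other cells (-1.45), and TXNRD1 (-1.54, against -0.16 in other cells). Of 21 junction genes 1, CDSN, was toward curly and 3 toward straight, and of 28 transcription factors 1 was toward curly and 1 toward straight. The receptor list had 0 of 9 in either direction and the immediate early list 0 of 15, which lists of this size cannot set apart from all genes.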

How the data were processed

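Single-cell RNA libraries were made from pooled skin by the submitters, with 3 lambs of each wool type in 1 library. The authors aligned reads to Oar_rambouillet_v1.0 with Cell Ranger (version 3.0.2 per the submitters' processing notes), filtered cells with Seurat, and deposited 18161 genes by 14037 cells as natural log values (UMIs brought to a sum of 10000 in each cell, plus 1). The table holds fewer cells than the study states, the step behind the difference is not given in the sources used here, and shares of a library are shares of the cells in the table. UMIs were recovered from the smallest step of each cell (100% of 28552149 values whole within 0.01). Members, gene lists and tests were chosen with earlier results of these data known, and the CDSN and FABP4 splits after values were seen.

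UMIs were summed per library and cell group (Python 3.11.15, NumPy 2.4.6, SciPy 1.17.1). Comparison groups were the cells with inner root sheath keratins at 20 CP10K or more, and, below both limits of the rule, those with KRT1 at 20 or more, with KRT15 at 20 or more and KRT1 under 20, or with VIM at 20 or more with KRT5 and KRT14 summed under 20. Intervals of log2 ratios are exact, from the binomial split of both sums, with 0.5 added for the ratio itself where a sum was 0. Genes needed 500 UMIs over both groups against other cells and 100 UMIs in members between libraries. Doublets were scored with Scrublet in scanpy 1.11.5, with the highest 6% called and kept except in an alternative. The ratios were checked on counts simulated with Poisson error only. The intervals assume that same error, so the check covered the arithmetic and not differences between cells or lambs. Named genes were the markers, list genes, the 20 highest against other cells (at least 100 UMIs in members and some in each library, ranked by the lower library), the 10 furthest between libraries each way and the 5 most like each marker. Of 3912 LOC rows, 2582 matched a RefSeq gene ID (ARS-UI_Ramb_v3.0) and 305 took a symbol from it, KRT14, KRT15 and MAL among them, where that table gives KRT14 also as another name of KRT17.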

Additional observations from a re-analysis of the deposited data

Results flagged for a closer look

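For 10 genes the log2 ratio of curly over straight was past the fold in members and past it the other way in all other cells. The difference itself was not tested, with 1 library per wool type. Other cells differed in their mix between the libraries, and the part of that mix was not tested either. Toward straight in members and toward curly in other cells were NEXN (-1.32 and 1.54), MYLK (-1.01 and 1.15) and TAGLN (-1.13 and 1.51), genes of contractile cells, the unnamed LOC101102105 (-1.40 and 1.25), the proton pump subunit ATP6V1C2 (-1.25 and 1.71) and the epidermal keratin KRT2 (-1.85 and 1.33). TAGLN was counted with 643 UMIs in straight and 937 in curly members. The smooth muscle list, which holds some of these genes, summed to 305 and 166 CPM in members and 691 and 1772 CPM in other cells. Toward curly in members and toward straight in other cells were FRMD3 (2.01 and -1.28), MCP1 (2.43 and -2.80), and TPSB2 (1.30 and -3.70) and SRGN (1.56 and -2.81), genes of mast cells and other leukocytes. MCP1, TPSB2 and SRGN had only 6, 14 and 10 UMIs in straight and 103, 110 and 94 in curly members.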

How the results depend on the processing

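With the KRT6A minimum at 10 CP10K the members were 4.73% of straight and 7.05% of curly cells, and at 50 CP10K 2.06% and 4.18%. In the curly library the share was 5.06% with the inner root sheath keratin limit at 10 CP10K, 6.51% with it at 50 and 7.64% over cells past the gene number of deep members. Thinning to 2000 UMIs gave 2.68% and 6.36%, and left out 1037 straight and 1533 curly cells as too shallow. The share of members with KRT1 at 20 CP10K or more was 4.86% in the curly library with a minimum of 10, and 5.26% (straight) and 0.631% (curly) with 50. Member neighbours were 52.5% and 68.4% with a minimum of 10, 88.6% in the curly library over those deep cells, and 56.3% in the straight library with 50 neighbours. Between wool types, the mean of per-cell CPM put 726 genes past the fold toward straight, and scaling by the median ratio 139. A minimum of 20 UMIs gave 387 toward curly and 1170 toward straight, and no minimum 579 and 2498. Without CDSN-rich members, an alternative chosen after seeing the data, 84 were toward curly. GAL turned to 1.71 with a KRT6A minimum of 50, and KLK7 to -1.47 and KLK5 to -0.71 without CDSN-rich members. The cause of these moves was not tested. Of the other values of single genes under alternatives, 424 stayed within their counting interval and 134 moved out of it. A change of side was looked for only where the main log2 ratio was at least 1 or at most -1. No paired analysis was possible because each wool type had 1 library. For the same reason no replicate could be left out.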
